A study of Mus musculus with 4 samples.

Results

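Galectins are small proteins that bind galactose-containing sugars on glycoproteins and glycolipids. The account below follows 5 gene rows of the family, Lgals1, Lgals3, Lgals8, Lgals9 and Lgalsl, out of 36528 gene rows measured in single cells of the mouse embryonic cortex. The cells came from 4 C57BL/6 mice at embryonic stage E16.5. The genotype was given as HET for 2 of them and as COP1 KO for the other 2. What HET is short for is left unsaid in the labels, which also give no Cre driver and no deleted part of the gene for the knockout, whose titles read CKO. Nothing else separates the groups in the labels, which name no litter or preparation date. A p-value here sets the difference between the groups against the spread between mice of the same genotype. A litter or preparation difference that went with genotype could not be told apart from it. COP1 binds the substrates of a ubiquitin ligase and so marks them for breakdown. The members were chosen by their names, and Lgals1 was selected on its genotype difference in whole-library counts of these same libraries. Its genotype differences are therefore described below without a test, and the tests concern the other galectins and the genes of their sugar ligands.

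Galectin-1, the product of Lgals1, is a small soluble lectin that pairs with itself and can cross-link glycoproteins at the cell surface and in the matrix. In the developing and injured brain it is known from meninges, vessels, microglia and neural progenitors, and astrocytes can make it too. Galectin-3 (Lgals3) carries a collagen-like tail beside its sugar-binding domain and is known from activated macrophages and microglia. Galectin-8 and galectin-9 (Lgals8 and Lgals9) are tandem-repeat galectins, with separate sugar-binding domains joined by a linker. Galectin-8 is known as a sensor of damaged endosomes, and galectin-9 is a ligand of immune receptors. Lgalsl encodes a galectin-related protein whose fold resembles that of the family and which is not known to bind the usual galactose sugars. In GRCm38.p6, by the RefSeq annotation, Lgals1 lies on chromosome 15 from 78926725 to 78930465, Lgals3 on chromosome 14 from 47373860 to 47386167 and Lgals8 on chromosome 13 from 12439402 to 12464977. Lgals9 and Lgalsl both lie on chromosome 11, from 78962979 to 78984924 and from 20823355 to 20831916. All are protein-coding genes. Reads from the 3' end of a transcript do not tell isoforms of a gene apart.

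The deposited tables held 28049007 to 28988265 counts per library, and 18780 of 19237 barcodes were kept as cells. Levels below are counts-per-million values (CPM). The median cell had 5090.5 and 5390 counts in the HET libraries and 4431 and 5049 in the COP1 KO libraries. Between 22 and 40 barcodes were shared by any pair of libraries. Rfwd2, the older symbol of the gene for COP1, had 32.5 and 39.8 CPM in HET, against 31.0 and 30.2 in COP1 KO. The edgeR test gave it a log2 change of -0.21 with an SE of 0.113 (adjusted p = 0.535), so it was not called, although the COP1 KO libraries lay below the HET libraries. The labels do not say which exons were removed, so these 3' counts cannot check them. Clusters of cells were called after a type, as "-like", from marker lists, with the galectin rows left out of the clustering. The 26 clusters gave 12 classes and 3117 cells with no name. Each class took the name of its highest-scoring marker list, and the vessel-like cluster that of its endothelial and mural lists together. The cells called oligodendrocyte precursor-like had summed levels of the 13 radial glia markers between 20953 and 28037 CPM, which overlaps the range of 24525 to 26140 in radial glia-like cells. Olig1, Olig2 and Pdgfra were among their leading genes.

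Lgals1 in HET cortex was a gene of the brain's coverings, vessels and immune cells. A level is the CPM of the gene out of all counts of the cells of that class in that library. Fibroblast-like cells, the cells of the meninges that make collagen, had 3071 and 3915 CPM of Lgals1 in the HET libraries. Microglia-like cells, named after the resident macrophages of the brain, had 1994 and 1739 CPM. Their cluster was led by Pf4, and their marker list, which holds Mrc1 and Pf4, does not separate microglia from other brain macrophages. Both libraries of fibroblast-like cells lay above both of microglia-like cells. Vessel-like cells, a cluster with endothelial and mural markers together, had 543 and 291 CPM, and oligodendrocyte precursor-like cells had 349 and 492 CPM. These ranges overlap, so vessel-like and oligodendrocyte precursor-like cells cannot be ordered in HET.

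Neural progenitors of HET cortex held less Lgals1. Progenitors of the ganglionic eminence, the source of cortical interneurons, had 110.4 and 93.9 CPM, and radial glia-like cells, the stem cells of the cortex, had 101 and 81.1 CPM. Their ranges overlap. Intermediate progenitor-like cells, the dividing daughters of radial glia that make neurons, had 23.1 and 32.4 CPM. Cajal-Retzius-like cells, the early neurons of the cortical surface that secrete reelin, had 15.98 and 14.5 CPM. Striatal projection neuron-like cells had 6.38 and 5.75 CPM, excitatory neuron-like cells 4.73 and 5.20 CPM, and cortical interneuron-like cells 4.75 and 1.52 CPM, the latter from 10 counts in all. Excitatory neuron-like and cortical interneuron-like cells overlap, and all 3 lie below the Cajal-Retzius-like level.

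**Figure D1:**
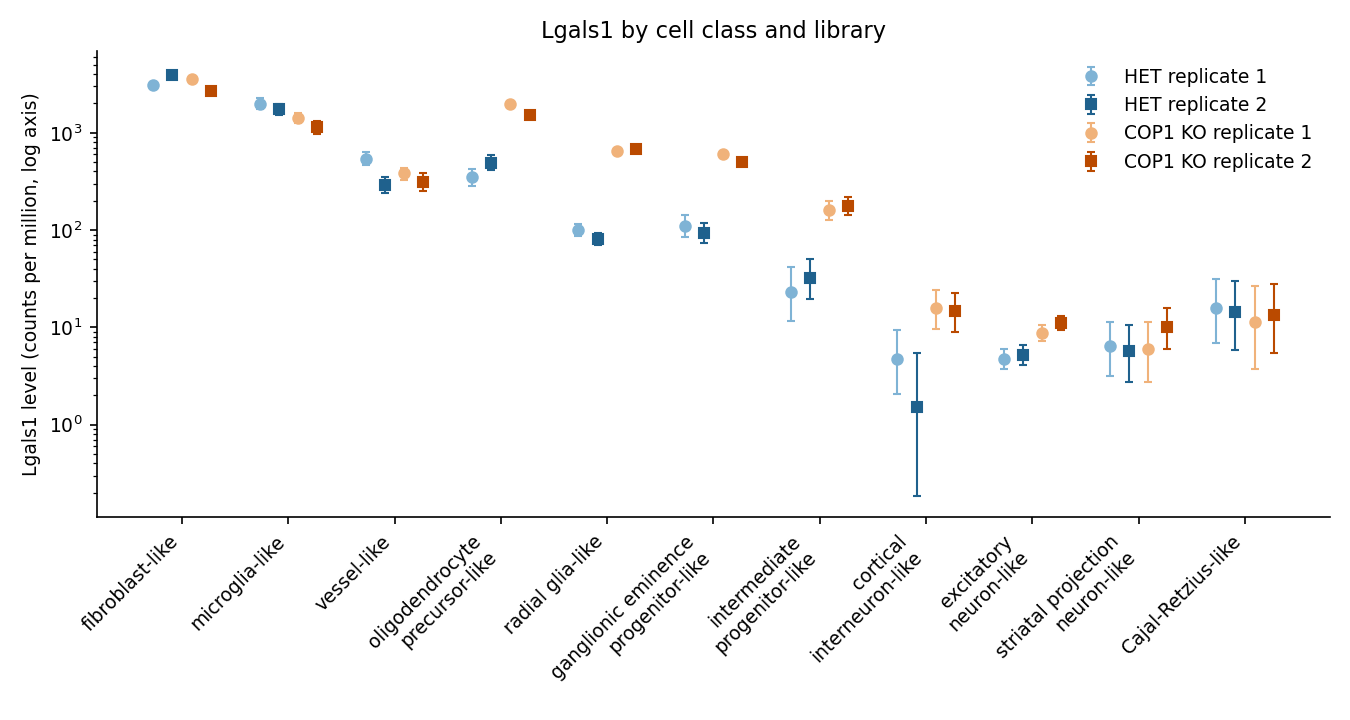
Lgals1 level (CPM, logarithmic axis) in each of 11 classes, with 1 point per library and bars for the exact 95% Poisson interval of the count. In radial glia-like cells both COP1 KO libraries (648 and 679 CPM) lie above both HET libraries (101 and 81.1 CPM), and in fibroblast-like cells the genotypes overlap.

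Radial glia-like cells, of the 11 classes shown, had the highest ratio of COP1 KO to HET. Their Lgals1 level was 101 and 81.1 CPM in HET, against 648 and 679 CPM in COP1 KO. The exact Poisson intervals, which cover counting error only, were 87.3 to 116 and 69.9 to 93.6 CPM for HET, against 615 to 682 and 646 to 714 CPM for COP1 KO. The group means were 91.0 ± 14.0 and 664 ± 22.0 CPM (SD, n = 2 each), a ratio of 7.30. The 2 clusters of the class each showed it. In dividing radial glia-like cells, a cluster led by Hes1 and mitotic genes, the level was 97.4 and 82.8 CPM in HET and 554 and 548 CPM in COP1 KO. In the other cluster, led by Aldoc, Mt3 and Hes5, it was 104.5 and 79.5 CPM in HET and 710 and 789 CPM in COP1 KO. The libraries of HET did not differ between the clusters beyond their spread, whereas in COP1 KO the non-dividing cells lay above the dividing cells in both libraries.

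Oligodendrocyte precursor-like cells reached the highest level among the neural classes of COP1 KO cortex. Their Lgals1 level was 349 and 492 CPM in HET, against 1994 and 1507 CPM in COP1 KO. The means were 421 ± 102 and 1751 ± 344 CPM (SD, n = 2 each), a ratio of 4.16. In COP1 KO the class lay above microglia-like cells, whereas in HET it lay below them in both libraries. The HET level rested on few cells: 3 of 34 cells held 93.5% of the Lgals1 counts of HET replicate 1, and 3 of 34 held 63.8% in HET replicate 2. In COP1 KO the richest 3 cells held 18.6% of the counts of 106 cells and 13.9% of those of 140 cells. Ttr, a choroid plexus gene, led this cluster, and 4 cells of HET replicate 1 and 4 of COP1 KO replicate 2 had 100 or more Ttr counts each. Without those cells the level was 455 and 492 CPM in HET and 1994 and 1579 CPM in COP1 KO.

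Lgals1 was lower at each step from radial glia-like cells to excitatory neuron-like cells in both genotypes. Ganglionic eminence progenitor-like cells had 110.4 and 93.9 CPM in HET and 601 and 496 CPM in COP1 KO, with means of 102 ± 11.7 and 548 ± 74.0 CPM (SD, n = 2 each) and a ratio of 5.37. Intermediate progenitor-like cells had 23.1 and 32.4 CPM in HET and 159 and 177 CPM in COP1 KO, with means of 27.8 ± 6.52 and 168 ± 12.5 CPM and a ratio of 6.05. A dividing cluster whose best marker list was also that of intermediate progenitors, but which was left without a name because Top2a, a marker of the ganglionic eminence list, was among its leading genes, had 17.8 and 21.0 CPM in HET and 159 and 117 CPM in COP1 KO. An unnamed cluster led by Sstr2, Tac2, Unc5d and Neurod1, with both intermediate progenitor and excitatory neuron markers, had 16.9 and 11.1 CPM in HET and 29.0 and 22.0 CPM in COP1 KO. Excitatory neuron-like cells had 4.73 and 5.20 CPM in HET and 8.81 and 11.1 CPM in COP1 KO, a ratio of 2.01. In each of the 4 libraries the order was thus radial glia-like cells, intermediate progenitor-like cells, the Sstr2 cluster and excitatory neuron-like cells.

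Neurons that come from the ganglionic eminence had levels near those of excitatory neurons. Cortical interneuron-like cells had 4.75 and 1.52 CPM in HET and 15.8 and 14.8 CPM in COP1 KO, from 10 and 40 counts, with a ratio of 4.88. That difference, 2.20 on the log2 scale, was 3.27 without HET replicate 1 and 1.69 without HET replicate 2. An unnamed cluster led by Sp8, Vax1 and Dlx genes, with markers of both eminence progenitors and interneurons, was higher, at 49.2 and 98.8 CPM in HET and 196 and 102 CPM in COP1 KO, where COP1 KO replicate 2 nearly meets HET replicate 2. Striatal projection neuron-like cells had 6.38 and 5.75 CPM in HET and 6.04 and 10.1 CPM in COP1 KO, and the genotypes overlap.

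Fibroblast-like, microglia-like, vessel-like and Cajal-Retzius-like cells did not have more Lgals1 in COP1 KO than in HET. Fibroblast-like cells had 3071 and 3915 CPM in HET and 3551 and 2655 CPM in COP1 KO, which overlap, with means of 3493 ± 597 and 3103 ± 634 CPM (SD, n = 2 each). Microglia-like cells had 1994 and 1739 CPM in HET and 1418 and 1137 CPM in COP1 KO, so both COP1 KO libraries lay below both HET libraries, with a ratio of 0.684 from 34 and 52 cells. Vessel-like cells had 543 and 291 CPM in HET and 382 and 312 CPM in COP1 KO, which overlap. Their fitted log2 difference changed sign with the libraries used, from -0.60 without HET replicate 2 to 0.36 without HET replicate 1. Cajal-Retzius-like cells had 15.98 and 14.5 CPM in HET and 11.4 and 13.5 CPM in COP1 KO, a ratio of 0.819 that rests on 15 and 12 counts.

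The cells that carried the Lgals1 counts of a library thus changed with genotype. Over whole libraries the level was 57.6 and 61.3 CPM in HET and 187 and 182 CPM in COP1 KO. Fibroblast-like, microglia-like and vessel-like cells together held 65.7% and 64.8% of the Lgals1 counts of the HET libraries, and 20.9% and 19.95% of those of the COP1 KO libraries. Radial glia-like, oligodendrocyte precursor-like and ganglionic eminence progenitor-like cells together held 22.8% and 24.1% in HET, against 69.6% and 71.4% in COP1 KO. Of the difference of 125 CPM between the group means, oligodendrocyte precursor-like cells held 41.0%, radial glia-like cells 39.8% and ganglionic eminence progenitor-like cells 12.1%. Intermediate progenitor-like and excitatory neuron-like cells held 2.13% and 2.09%, and fibroblast-like cells -0.10%.

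**Figure D2:**
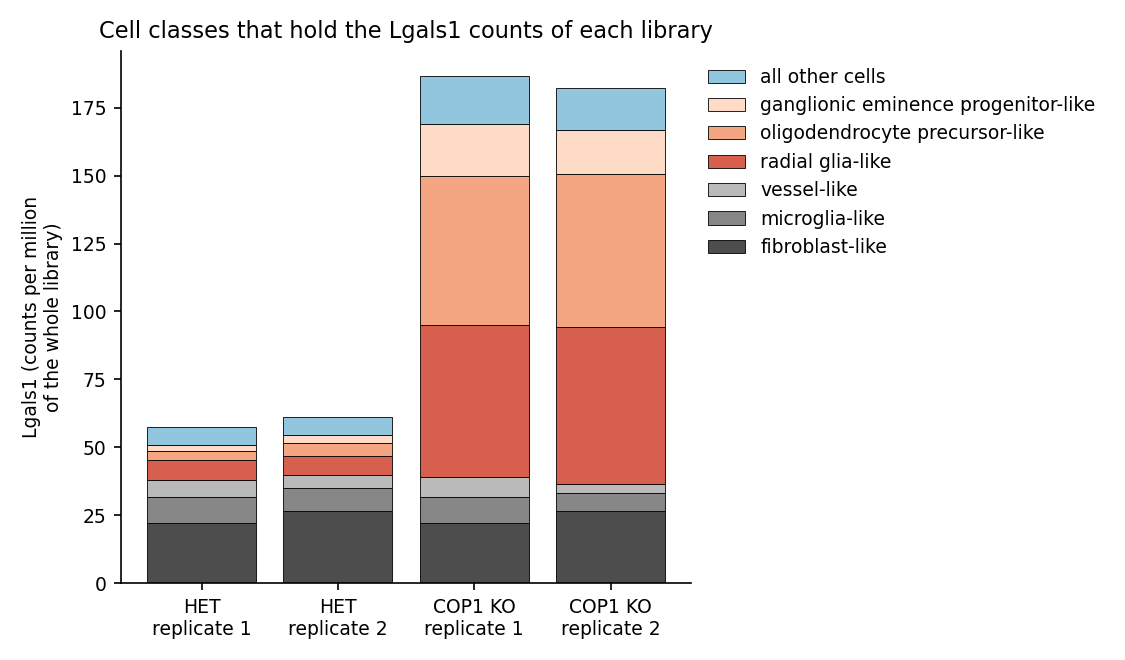
Lgals1 counts of each library split by the class that held them, in CPM of the whole library (stacked bars, 1 per library). The grey segments of fibroblast-like, microglia-like and vessel-like cells are 65.7% and 64.8% of the HET bars and 20.9% and 19.95% of the COP1 KO bars.

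Numbers of cells enter such sums as well as levels within a class. Oligodendrocyte precursor-like cells numbered 34 and 34 in the HET libraries and 106 and 140 in the COP1 KO libraries. With each class held at its average share of counts in the HET libraries, the COP1 KO libraries would have had 143 and 127 CPM of Lgals1, against 59.6 and 60.3 CPM for the HET libraries on the same scale. These values lie below the 187 and 182 CPM observed and above both HET libraries.

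The share of cells with an Lgals1 molecule was compared after thinning every cell to 2000 counts, which removes differences in depth between cells. Of radial glia-like cells, 14.2% (exact binomial 95% interval 10.4 to 18.8) and 12.8% (9.25 to 17.1) had a count in the HET libraries, and 53.5% (48.4 to 58.5) and 48.7% (43.2 to 54.1) in the COP1 KO libraries. Thinning left out 3 COP1 KO cells that had fewer counts and no HET cell of this class. Unthinned, the shares were 39.6% and 37.4% in HET, against 72.1% and 74.0% in COP1 KO. Of oligodendrocyte precursor-like cells, 11.8% (3.30 to 27.5) and 29.4% (15.1 to 47.5) had a count in HET, against 65.4% (55.4 to 74.4) and 61.9% (53.3 to 70.0) in COP1 KO. Of ganglionic eminence progenitor-like cells, 15.3% (9.18 to 23.4) and 17.4% (11.8 to 24.3) had a count in HET, against 38.1% (31.3 to 45.2) and 38.0% (31.0 to 45.5) in COP1 KO. In each of these classes the genotypes did not overlap. In intermediate progenitor-like cells the thinned shares were 8.00% and 5.79% in HET, against 19.5% and 16.7% in COP1 KO.

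**Figure D3:**
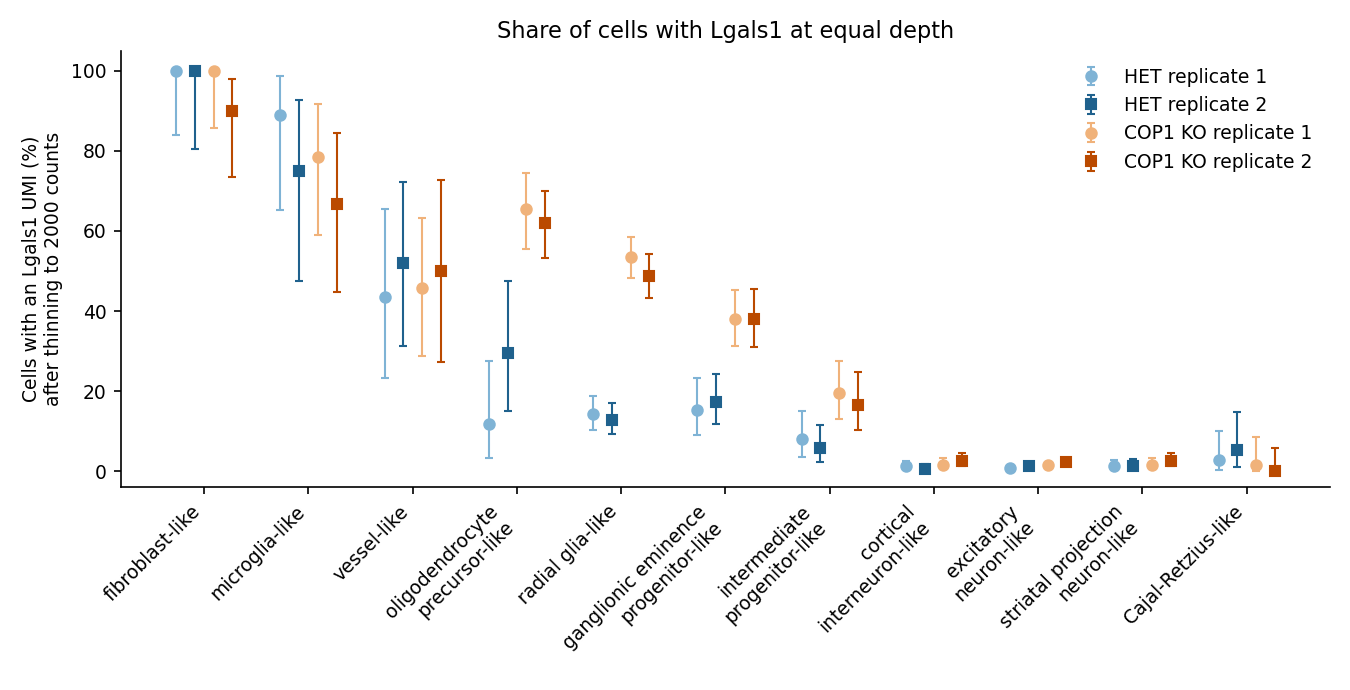
Share of cells (%) with at least 1 Lgals1 UMI after thinning each cell to 2000 counts, by class and library, with exact binomial 95% intervals. Radial glia-like cells are at 14.2% and 12.8% in HET and at 53.5% and 48.7% in COP1 KO, and fibroblast-like cells are at or above 90.0% in all libraries.

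Excitatory neuron-like cells, which hold little Lgals1, serve as the reference for molecules that float between droplets. At the same thinned depth 0.878% and 1.21% of them had a count in HET and 1.59% and 2.37% in COP1 KO, against unthinned shares of 2.85%, 2.93%, 4.14% and 6.56%. Their median depth of 5303 to 6660 counts was near that of radial glia-like cells, 5110 to 6517 counts. The shares in progenitors were thus above this level in every library, while those of cortical interneuron-like cells (0.501% to 2.54%) and striatal projection neuron-like cells (1.23% to 2.65%) were at it. Both neuronal classes are shallower, at medians of 2540 to 3703 counts, and in these 3 classes the part of free RNA in the genotype difference was not tested. Barcodes left out for having under 500 genes had 32.0 and 28.3 CPM of Lgals1 in HET, against 30.5 and 33.7 CPM in COP1 KO. Their genotypes overlap, but each of these levels rests on only 6 to 10 Lgals1 molecules. The 52 such barcodes of HET replicate 1 held 218559 molecules of all genes, and the 80 of COP1 KO replicate 1 held 327930. Barcodes as deep as these cannot be taken as empty droplets, so they give no level of free RNA.

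Within radial glia-like cells both more cells had Lgals1 and the positive cells had more of it. After thinning, 85.8% and 87.2% of HET cells had 0 counts and 11.8% and 11.1% had 1, and no HET cell had 5 or more. In COP1 KO 46.5% and 51.3% had 0 counts, and 5.88% and 9.25% had 5 or more. Unthinned, a positive cell had 1.73 and 1.64 counts on average in HET, against 5.14 and 6.40 in COP1 KO. Oligodendrocyte precursor-like cells with 5 or more thinned counts made up 2.94% of either HET library and 32.7% and 23.0% of the COP1 KO libraries. For comparison, 52.4% and 76.5% of HET fibroblast-like cells and 22.2% and 31.3% of HET microglia-like cells had 5 or more. In COP1 KO, 61.9% and 62.0% of ganglionic eminence progenitor-like cells had no count at this depth.

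**Figure D4:**
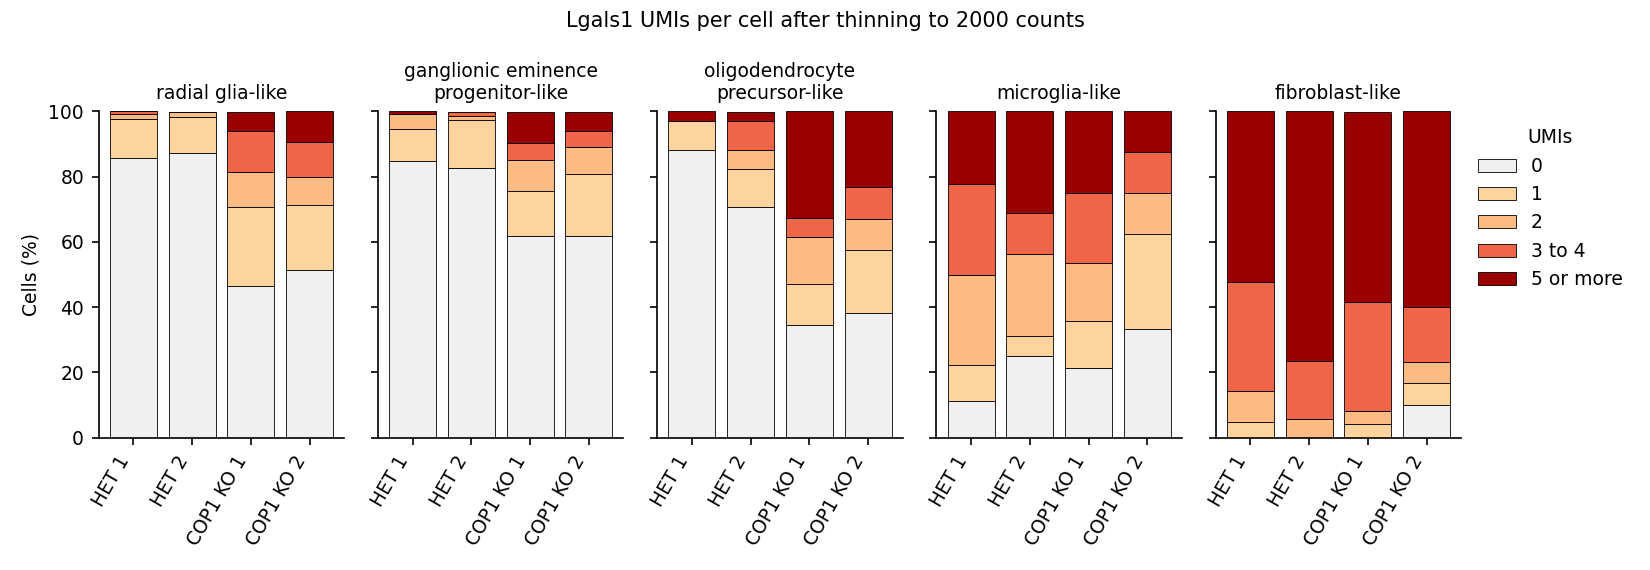
Cells (%) of 5 classes with 0, 1, 2, 3 to 4 and 5 or more Lgals1 UMIs after thinning to 2000 counts, 1 stacked bar per library. The share of radial glia-like cells with 0 UMIs is 85.8% and 87.2% in HET, against 46.5% and 51.3% in COP1 KO.

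Fibroblast, microglia and endothelial markers summed to low levels in radial glia-like cells, and the sum of the mural list is not given here. With the mural list included, 252 of 593 HET and 384 of 729 COP1 KO radial glia-like cells had no count of any of these 4 lists. In radial glia-like cells the 10 fibroblast markers summed to 32.8 and 26.4 CPM in HET and 34.7 and 67.2 CPM in COP1 KO, the 12 microglia markers to 12.8 and 9.54 CPM and to 8.00 and 8.56 CPM, and the 10 endothelial markers to 15.9 and 11.7 CPM and to 27.5 and 22.2 CPM. At most 5 of the 12 microglia markers, 4 of the 10 fibroblast markers and 6 of the 10 endothelial markers were at 0 in a library. The erythroid list, 6 genes led by hemoglobins, moved with genotype in this class, at 4.10 and 5.64 CPM in HET and 184 and 129 CPM in COP1 KO. It did so in ganglionic eminence progenitor-like cells too, at 5.26 and 7.61 CPM in HET and 205 and 197 CPM in COP1 KO. In radial glia-like cells with no count of any fibroblast, endothelial, mural, microglia or erythroid marker, 249 in HET and 356 in COP1 KO, Lgals1 was 103 and 61.3 CPM in HET and 726 and 725 CPM in COP1 KO. The ratio there was 8.83, as against 7.30 in all cells. In ganglionic eminence progenitor-like cells chosen the same way the ratio was 4.71, and in oligodendrocyte precursor-like cells 3.99.

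The genes whose levels followed Lgals1 most closely were sought over 36 points, the sums of 9 classes in 4 libraries, among 7862 genes with a mean of at least 20 CPM over them. Pearson's r of log2(CPM + 1) was highest for Phxr4 (0.92), followed by Tcf7l2, Wnk1, Metrn, Ccnd1, Magt1, Pon2, Jam2, Tmem165 and Clic1 (0.90). Fibroblast-like and microglia-like cells, which had fewer than 20 cells in at least 1 library, were not among the 9 classes. The points share libraries and class depths, so r is a description. Metrn encodes a secreted glial protein, Ccnd1 encodes cyclin D1 of the cell cycle, and Tcf7l2 encodes a transcription factor of the Wnt pathway. Metrn had 337 and 462 CPM in HET and 279 and 288 CPM in COP1 KO oligodendrocyte precursor-like cells, and 0.197 to 0.775 CPM in excitatory neuron-like cells. Ccnd1 had 104 and 114 CPM in HET and 138 and 172 CPM in COP1 KO radial glia-like cells. Of these 10 genes, 3 stayed in the leading 10 over the HET libraries alone and 3 over the COP1 KO libraries alone, so most names depend on which libraries are taken.

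Of the other 4 galectin rows, Lgals3, Lgals8 and Lgals9 had their highest group means in microglia-like cells, where Lgals1 was also high. For Lgals3 these means came from at most 3 cells a library. The highest means of Lgalsl were in excitatory neuron-like cells. With all 4 libraries, none of these 4 rows was called in any fit that tested it, at an edgeR adjusted p under 0.05. Of all genes tested, 0.00610% were called in whole libraries and 3.09% in radial glia-like cells. Rows with few counts were not tested: Lgals3, Lgals8, Lgals9 and Lgalsl were all tested in whole libraries, and Lgals3, Lgals8 and Lgalsl in radial glia-like cells.

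Lgals3 was found in radial glia-like cells and in a few microglia-like cells. In radial glia-like cells it had 7.17 and 23.0 CPM in HET, against 18.2 and 25.2 CPM in COP1 KO, from 14, 53, 41 and 59 counts. HET replicate 1 was low, and HET replicate 2 lay between the COP1 KO libraries. The richest 3 cells of this class carried 50% of the Lgals3 molecules of HET replicate 1 and 24.5% of those of HET replicate 2. For COP1 KO replicates 1 and 2 these shares were 39.0% and 49.2%, and 1 cell of the latter had 21 of its 59 molecules. The levels of Lgals3 in this class, their log2 change and their split by cluster thus rest in part on few cells. The log2 change was 0.53 (SE 0.412, edgeR adjusted p = 0.614). Without HET replicate 2 it was 1.64 (edgeR adjusted p = 0.0357), and without HET replicate 1 it was -0.031 (edgeR adjusted p = 0.989), so single HET libraries decide it. Non-dividing cells had 9.40 and 28.5 CPM in HET and 27.9 and 38.5 CPM in COP1 KO, and dividing cells had 5.02 and 17.1 CPM and 3.38 and 9.40 CPM. Lgals3 in microglia-like cells was 318 and 31.5 CPM in HET and 17.2 and 93.2 CPM in COP1 KO. All of those counts came from at most 3 cells in each library, so they give no level of the class. Intermediate progenitor-like cells had 1.94 to 5.11 CPM, and excitatory neuron-like cells 0.211 to 0.414 CPM. Over whole libraries the log2 change of Lgals3 was 0.051 (SE 0.255, edgeR adjusted p = 0.956).

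Lgals9 was highest in microglia-like cells, followed by vessel-like cells. Microglia-like cells had 101 and 149 CPM of Lgals9 in HET and 115 and 143 CPM in COP1 KO, and vessel-like cells had 40.2 and 39.3 CPM and 53.1 and 30.9 CPM. The genotypes overlap in both. Fibroblast-like cells had 15.4 and 22.3 CPM in HET and 30.8 and 22.0 CPM in COP1 KO. Radial glia-like cells held 1 count and ganglionic eminence progenitor-like cells none, with at most 0.428 CPM in any library of the former. In vessel-like cells the log2 change was 0.22 (SE 0.387, edgeR adjusted p = 0.9995), and over whole libraries it was 0.35 (SE 0.270, edgeR adjusted p = 0.643). Cajal-Retzius-like cells had 9.99 and 6.20 CPM in HET and 4.57 and 0 CPM in COP1 KO, from 8 and 2 counts.

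Lgals8 was spread over nearly all classes. Microglia-like cells had 46.6 and 47.2 CPM of Lgals8 in HET and 57.4 and 43.5 CPM in COP1 KO. Cortical interneuron-like cells had 15.4 and 27.4 CPM and 17.4 and 28.8 CPM, radial glia-like cells 17.4 and 13.0 CPM and 17.3 and 16.3 CPM, and excitatory neuron-like cells 11.9 and 12.3 CPM and 12.5 and 11.7 CPM. In all of these the genotypes overlap. Striatal projection neuron-like cells had the lowest levels among the neuronal classes, 5.22 and 3.45 CPM in HET and 3.36 and 3.37 CPM in COP1 KO. Over whole libraries the log2 change of Lgals8 was 0.13 (SE 0.0995, edgeR adjusted p = 0.631), and in radial glia-like cells it was 0.20 (SE 0.253, edgeR adjusted p = 0.780).

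Lgalsl was highest in neurons and lowest in fibroblast-like and microglia-like cells, where Lgals1 was highest. Excitatory neuron-like cells had 106 and 101 CPM of Lgalsl in HET and 86.4 and 101 CPM in COP1 KO. Striatal projection neuron-like cells had 91.7 and 100.1 CPM and 69.1 and 96.0 CPM, and cortical interneuron-like cells 90.2 and 87.6 CPM and 68.9 and 74.5 CPM. Radial glia-like cells had 59.4 and 61.1 CPM in HET and 50.6 and 59.9 CPM in COP1 KO. Intermediate progenitor-like cells had 23.1 and 35.8 CPM and 27.1 and 33.0 CPM, below radial glia-like cells and below excitatory neuron-like cells in all 4 libraries. Fibroblast-like cells had 6.15 to 33.0 CPM and microglia-like cells 0 to 15.5 CPM. Over the 36 points, which leave out fibroblast-like and microglia-like cells, the Pearson r of Lgals1 with Lgalsl was -0.65, and with Lgals3 it was 0.47, given as descriptions. Over whole libraries the log2 change of Lgalsl was -0.17 (SE 0.0838, edgeR adjusted p = 0.518). COP1 KO replicate 1 was the lowest library in each of the 3 neuronal classes. Both COP1 KO libraries lay below both HET libraries over whole libraries, in cortical interneuron-like cells and, narrowly, in excitatory neuron-like cells. With so few libraries such a separation arises often by chance, and its share over all genes was not counted. In striatal projection neuron-like cells the genotypes overlap. Without COP1 KO replicate 2 the whole-library change was -0.29 (edgeR adjusted p = 0.0222).

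**Figure D5:**
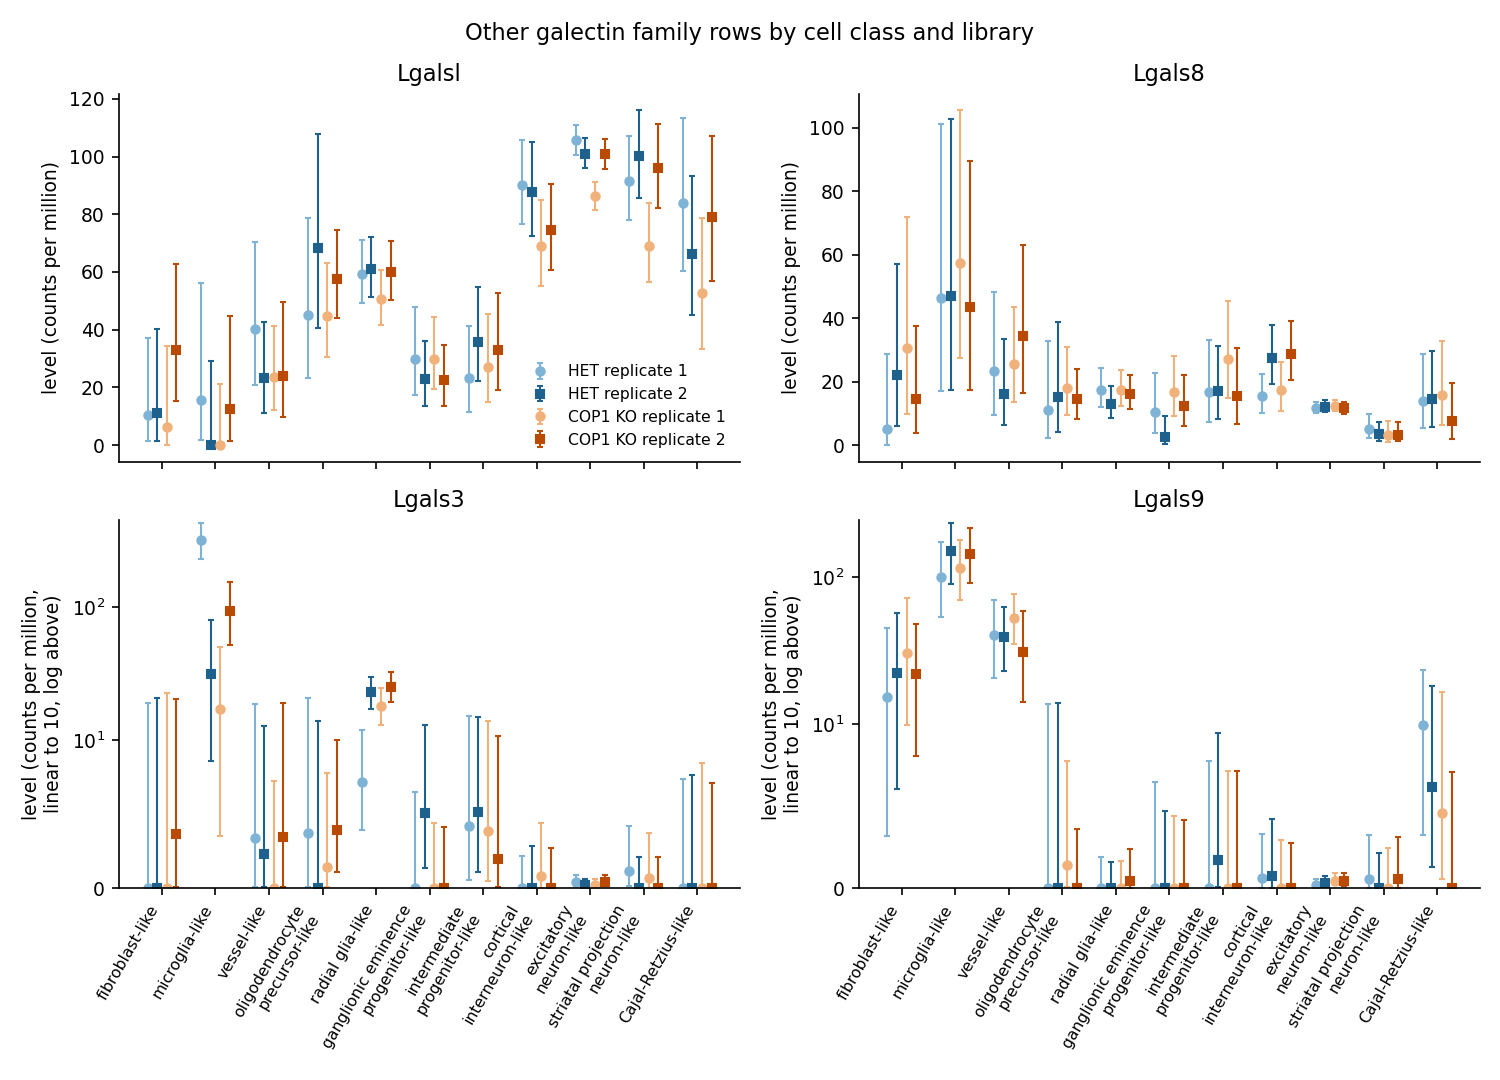
Levels (CPM) of Lgalsl, Lgals8, Lgals3 and Lgals9 in 11 classes, 1 point per library, with exact 95% Poisson intervals; the axes of Lgals3 and Lgals9 are linear up to 10 CPM and logarithmic above. Lgalsl is at 86.4 to 106 CPM in excitatory neuron-like cells, and Lgals9 at 101 to 149 CPM in microglia-like cells.

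Other rows whose names start with Lgals had few counts. Lgals7, which encodes a galectin of stratified epithelia, had 158 and 155 counts in HET, against 103 and 119 in COP1 KO, before cells were filtered. Lgals4 and Lgals6, near-identical genes that can share reads, had 18 to 31 and 18 to 30 counts. A row named Lgals1-ps2, after a pseudogene of Lgals1, had 14 to 28 counts in a library, against 1564 to 5120 for Lgals1. The handling of reads shared by gene and pseudogene was not stated in the labels.

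The sugars that galectins bind are made and capped by enzymes that set how many galactose ends a glycoprotein shows. A list of 64 genes held 18 glycan branching and galactosylation enzymes, 7 sialyltransferases and 39 surface and matrix glycoproteins known as galectin partners. In whole libraries 62 of them were tested and none was called, against 0.00610% of all genes; 10 had an unadjusted edgeR p under 0.05, as had 1704 of the 16381 genes tested, and DESeq2 called none of 59. Of the 62, 38 were higher in COP1 KO, with a median log2 change of 0.050, beside 8277 of 16381 genes higher and a median of 0.0022 over all genes. The lowest p-values were those of Egfr, the receptor of epidermal growth factor, Nrp1, a receptor of semaphorins, Thy1, a neuronal surface glycoprotein, and Itga6, an integrin that binds laminin. Egfr had 0.745 and 0.984 CPM in HET and 2.07 and 2.55 CPM in COP1 KO (log2 change 1.44, edgeR adjusted p = 0.202). It is also on the marker list of oligodendrocyte precursors. That class had 34 and 34 cells in HET and 106 and 140 in COP1 KO, and the part of cell numbers was not tested. In radial glia-like cells Egfr had 3.07 and 2.17 CPM in HET and 6.22 and 8.13 CPM in COP1 KO, from 5 to 19 counts. Nrp1 had 300.4 and 295 CPM in HET and 249 and 234 CPM in COP1 KO (log2 change -0.28, edgeR adjusted p = 0.270). The log2 changes of Thy1 and Itga6 were 0.33 and 0.53, with edgeR adjusted p of 0.345 and 0.458.

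Of the 64 genes, 45 were tested in radial glia-like cells and 1 was called, where 3.09% of all genes were called, 2.19% as higher and 0.909% as lower. It was Fn1, which encodes fibronectin, a matrix glycoprotein that binds integrins. Fn1 had 10.8 and 13.4 CPM in HET and 43.1 and 35.1 CPM in COP1 KO, and rose, with a log2 change of 1.73 ± 0.228 (SE; adjusted p = 0.00434 by edgeR). Endothelial cells also make fibronectin, and the endothelial list was higher in COP1 KO radial glia-like cells, at the 15.9, 11.7, 27.5 and 22.2 CPM given above; its part in the Fn1 result was not tested. Of the 45 genes 30 were higher in COP1 KO, with a median log2 change of 0.087, beside 5645 of 11439 genes and a median of -0.0034 over all genes. Of the surface and matrix glycoproteins 20 of 25 tested were higher and 5 lower. Of the enzymes that build branches and add galactose, 7 of 13 tested were higher and 6 lower, and of the sialyltransferases 3 of 7 were higher and 4 lower. Mgat5, the branching enzyme whose product galectins bind well, was at -0.019 on the log2 scale (edgeR adjusted p = 0.985, SE 0.224). In the other classes that were fitted no gene of the list was called, and fibroblast-like and microglia-like cells were not fitted. The shares called over all genes were 0.341% in ganglionic eminence progenitor-like cells (0.294% higher and 0.0470% lower), 0.286% in intermediate progenitor-like cells (0.221% and 0.0649%) and 0.0649% in oligodendrocyte precursor-like cells (0.0130% and 0.0519%). They were 0.0136% in Cajal-Retzius-like, 0.0103% in cortical interneuron-like and 0.00986% in striatal projection neuron-like cells, and 0% in excitatory neuron-like and vessel-like cells.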

How the data were processed

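Per the labels' protocols, cortex of 4 mice was dissociated with papain and made into 10x Chromium 3' v2 libraries. The authors deposited 1 table a library, which holds counts as whole numbers, with genes against barcodes. Per the submitters' processing notes, the aligner GSNAP and the build GRCm38 (mm10) were used. The counter, annotation, molecule collapsing and cell calling: not given in the sources used here. Of 36528 rows, 3065 carry only a number (1.69% of counts), and 269 identical copies (1.18%) were removed.

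Barcodes under 500 genes (222), over 10% mitochondrial counts (1) or with a doublet score above 0.25 (234; the score threshold was set after the data were seen) were removed. Cells were clustered with scanpy 1.11.5 and leidenalg 0.10.2 (2000 variable genes, 30 components, 15 neighbours, resolution 1, no integration), without galectin rows. A cluster was named from 14 marker lists when its marker score reached 0.35 with a margin of 0.1, at least 3 markers were each found in 10% of its cells, and its leading genes did not favour another list; these thresholds were set after the data were seen, and a cluster with endothelial and mural markers leading was called vessel-like.

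Counts were summed per class and library for the 9 classes with 20 or more cells in every library, and for whole libraries, and tested with edgeR 4.0.16 (quasi-likelihood, TMM, filterByExpr, Benjamini-Hochberg over all genes, R 4.3.3), after tests on simulated data. The mouse is the replicate; 95% Poisson and binomial intervals cover counting error only. Of the partner list, genes called in the whole-library or radial glia-like fit are named, otherwise the 4 with the lowest p, and Mgat5 was named after its values were seen. The 10 genes with the highest r to Lgals1 are named too. Galectins and gene lists were chosen with earlier results of these data known. Alternatives were other scalings, no filter, DESeq2 1.42.0, each library left out, doublets kept, other resolutions and other depths.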

Additional observations from a re-analysis of the deposited data

Results flagged for a closer look

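Both COP1 KO libraries had more Lgals1 than either HET library in 6 named classes, and less in 2. The ratios of COP1 KO to HET were 7.30 in radial glia-like, 6.05 in intermediate progenitor-like, 5.37 in ganglionic eminence progenitor-like, 4.88 in cortical interneuron-like, 4.16 in oligodendrocyte precursor-like and 2.01 in excitatory neuron-like cells. They were 0.684 in microglia-like and 0.819 in Cajal-Retzius-like cells. The difference between these classes was not tested. The ratio in Cajal-Retzius-like cells rests on 15 and 12 counts, and that in cortical interneuron-like cells on 10 and 40. In cortical interneuron-like and excitatory neuron-like cells the part of free RNA was not tested. With 2 libraries a genotype, lack of overlap arises often by chance, and its share over all genes was not counted.

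Lgals8 had a ratio of 1.51 in vessel-like and 0.775 in striatal projection neuron-like cells, with genotypes that did not overlap in either, although the striatal values nearly meet (3.45 CPM in HET replicate 2 and 3.37 CPM in COP1 KO replicate 2). That difference was not tested either, and rests on 14 and 23 counts in vessel-like and 15 and 11 counts in striatal projection neuron-like cells. In ganglionic eminence progenitor-like cells the ratio of Lgals8 was 2.23, from 8 and 25 counts, and the genotypes did not overlap there either. In the other named classes shown they overlapped. The same limit on lack of overlap holds for Lgals8.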

How the results depend on the processing

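The direction of the Lgals1 difference was kept in all 10 settings of 8 fits and in the 2 settings in which the row of Cajal-Retzius-like cells was tested, but not in vessel-like cells (log2 -0.60 to 0.36). No paired analysis was possible because the labels number no replicates: the numbers used here follow the order of deposit and tie no mice together. Genes called in whole libraries went from 1 to 2 with library totals alone, 158 with DESeq2 and 0 (without either HET replicate) to 1221 (without COP1 KO replicate 2; 196 without COP1 KO replicate 1) with a library left out, and partner genes called from 0 to between 0 and 6. In radial glia-like cells, 354 calls became 862 without the filter, 175 with DESeq2 and 215 (without HET replicate 1) to 674 (without COP1 KO replicate 2) with a library left out; partner calls were 2 with library totals alone, 5 without the filter and 1 to 4 with a library left out. Of the other galectins, 0 to 1 was called with a library left out. With a library left out, log2 changes spanned -0.32 (without COP1 KO replicate 2) to 0.33 for Lgals3 in whole libraries. For radial glia-like cells they spanned -0.031 (without HET replicate 1) to 1.64 for Lgals3, -0.0023 (without HET replicate 2) to 0.42 for Lgals8, and -0.18 to 0.018 (without COP1 KO replicate 1) for Lgalsl, so each turned sign. A genotype left with 1 library is assumed to vary like the other. At resolution 0.5, where radial glia-like and oligodendrocyte precursor-like cells form 1 cluster, Lgals1 in radial glia-like cells was 126 CPM in HET and 954 CPM in COP1 KO. With doublets kept, ganglionic eminence progenitor-like COP1 KO cells had 469 CPM. Shares of cells with Lgals1 depend on depth: thinned to 1000 counts and unthinned they were 8.08% and 38.5% in HET, against 40.1% and 73.1% in COP1 KO radial glia-like cells, and 9.28% and 29.8% in HET, against 28.1% and 49.8% in COP1 KO ganglionic eminence progenitor-like cells. In oligodendrocyte precursor-like cells they were 33.8% in HET unthinned, and 48.9% at 1000 and 78.6% unthinned in COP1 KO, and in HET fibroblast-like cells 87.0% at 1000 and 100% unthinned. The radial glia-like ratio was 8.83 in cells without the 5 other marker lists and, in alternatives chosen after seeing the data, 8.92 without 4 of them, 6.12 in the dividing cluster and 2.11 in cells with R-spondins. Added likewise, the oligodendrocyte precursor-like ratio was 5.99 with and 2.89 without Pdgfra or Sox10, and the ganglionic eminence progenitor-like ratio 8.65 with and 4.53 without Olig1 or Olig2. Single cells set much of the HET level on both sides of the Pdgfra or Sox10 split, so its ratios cannot be ordered. Of the 10 genes most like Lgals1, 3 were shared by Spearman's rho, by HET libraries only and by COP1 KO libraries only. The cause of these changes was not tested. With 2 libraries a genotype, counts of calls move widely with single libraries, and levels in classes of 16 to 36 cells rest on few cells.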

Other observations

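The classes that held most of the Lgals1 difference were divided further by single genes, after the data had been seen. Radial glia-like cells with a count of Rspo1, Rspo2 or Rspo3, which encode R-spondins made near the cortical hem, had 133 and 167 CPM of Lgals1 in HET and 340 and 294 CPM in COP1 KO, a ratio of 2.11 from 15 to 27 cells a library. Among them 1 cell held 13 of the 24 Lgals1 counts in HET replicate 1, and 1 held 7 of 23 in HET replicate 2. Radial glia-like cells without such a count had 97.6 and 75.6 CPM in HET and 681 and 708 CPM in COP1 KO, a ratio of 8.02. The cells with R-spondins had a median of 6909 to 8568 counts, and those without 4999 to 6406. In ganglionic eminence progenitor-like cells with a count of Olig1 or Olig2, transcription factors of the oligodendrocyte lineage, Lgals1 was 118 and 73.5 CPM in HET and 914 and 741 CPM in COP1 KO. In those without it was 109 and 101 CPM in HET and 514 and 435 CPM in COP1 KO.

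Oligodendrocyte precursor-like cells with a count of Pdgfra or Sox10, which mark committed precursors, had 77.6 and 526 CPM of Lgals1 in HET and 1708 and 1904 CPM in COP1 KO. Cells of the class without either had 656 and 466 CPM in HET and 2182 and 1057 CPM in COP1 KO. The HET levels rest on single cells on both sides of the split. In cells with Pdgfra or Sox10, 1 cell held 10 of 11 Lgals1 counts in HET replicate 1 and 31 of 62 in HET replicate 2. In cells without, 1 cell held 75 of 82 counts in HET replicate 1 and 31 of 68 in HET replicate 2. Of the cells with Pdgfra or Sox10, 11.1% of 18 and 20% of 20 had a count of Lgals1 in the HET libraries, against 75.0% of 44 and 73.6% of 72 such cells in the COP1 KO libraries. The differences between the sides of these splits were not tested.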
